A study of Rattus norvegicus with 50 samples.

Results

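Slc4a1, Rhag, Rhd, Epb42, Ahsp, Hemgn and Car1 are 7 genes of the developing and mature red cell, here followed in rat liver. They were chosen by name, with earlier results of these data known. Each was matched on the gene symbol of the array's probes and represented by the probe with the highest mean. All 7 were found among the 14506 genes with a probe of their own. Rhag had 2 probes with the same value on 50 of 50 arrays, which were counted as 1, and the other genes had 1 probe each.

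The red cell membrane is held to a spectrin skeleton by complexes built around band 3, the chloride-bicarbonate exchanger encoded by Slc4a1. The Rh proteins and protein Epb42 sit in the same complexes. Inside the cell, the chaperone Ahsp binds free alpha globin until it pairs with beta globin, and the carbonic anhydrase Car1 interconverts carbon dioxide and bicarbonate. These genes are switched on as erythroblasts mature under erythropoietin (EPO), mainly by the factors Gata1 and Klf1. In adult rats red cells are made in bone marrow and spleen, while the liver is the fetal site, and blood held in a liver sample brings its own red cell and reticulocyte RNA.

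The livers came from 50 male Sprague Dawley rats of about 3 months (335 ± 28 g), 1 array per animal, in 10 groups of 5. The 5 sham animals were intact. The other 45 carried a controlled cortical impact, a contusion of the brain, and were given saline vehicle, EPO (2500 IU/kg, sold as Procrit) or anakinra (100 mg/kg, sold as Kineret, an interleukin-1 receptor antagonist), with livers taken at 24 h, 72 h or 7 days. Every EPO and anakinra animal was therefore injured too, there was no uninjured animal on a drug, and sham animals form a single group that serves all times. The human protein was given to rats, how often and when doses were given is not stated in the labels, and blood counts were not analysed here. The series was made to ask how injury and both drugs affect drug metabolism in the liver.

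Values are log2 levels after robust multi-array averaging (RMA), so a difference of 1 is a factor of 2. A probe's level cannot be set against that of another probe. Differences were tested with limma over all 50 arrays and 14506 genes, and a gene passed at a Benjamini-Hochberg adjusted p under 0.05. The hepatocyte gene Alb lay at group means of 13.94 to 13.99 in the vehicle and EPO groups, as the liver label requires. Array medians lay between 6.66 and 6.89, and 5 arrays had a narrower spread than the others (4 of them in vehicle groups: array 3 at 24 h, arrays 2 and 5 at 72 h, array 3 at 7 days; the fifth was EPO array 3 at 7 days).

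In livers of EPO-treated animals all 7 genes were higher than with vehicle at 72 h, by 2.63-fold for Car1 to 13.2-fold for Ahsp. At 7 days 6 of them were still higher, and Car1 was not. At 24 h none had passed the test. Among all 14506 genes, 2.18% were called higher with EPO at 72 h, 0.331% at 7 days and 0.0276% at 24 h. At 72 h the EPO and vehicle arrays did not overlap for any of the 7 genes (1.11% of all genes had EPO above vehicle without overlap), and at 7 days they did not overlap for 6 (0.662%). The median difference of the 7 genes was 2.28 at 72 h and 2.08 at 7 days, where the median of all genes was -0.03 and 0.00. Because the 7 were chosen with earlier results known, their contrast with all genes is a description and no test. More red cell precursors or reticulocytes in the sample and more of these RNAs per cell cannot be told apart in whole tissue.

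**Figure D1:**
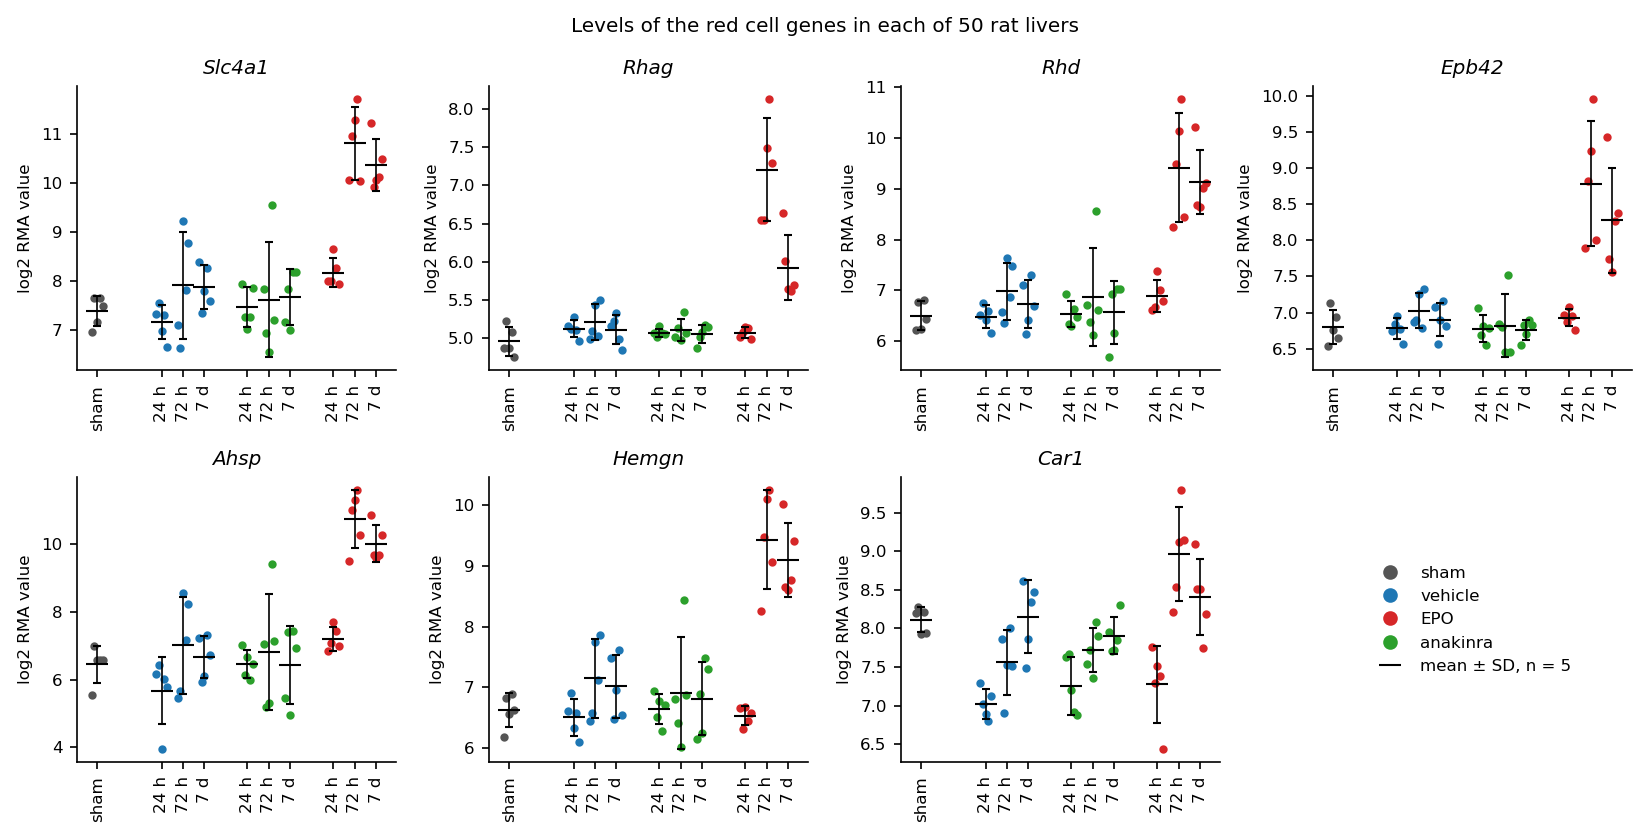
Each panel plots the log2 RMA value of 1 gene in each of 50 livers against the 10 groups, with points for single animals and black marks for the mean ± SD of 5 animals. The EPO groups at 72 h and 7 days stand highest in every panel, Rhag falls between those times, and Car1 starts below sham at 24 h.

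Upstream sequence was looked at because these genes moved together. The reference table (RefSeq, build GRCr8) held promoters for 4 of the 7 genes, and the 250 bases before each start are given here on the gene's own strand. The starts are those listed with the promoters and need not be the outer end of the gene. Both Hemgn windows lie inside the annotated span of that gene (65475228 to 65495384). The last bases of the Rhd window lie inside the span of Rhd, which begins at 152371160. Capitals mark GATAA, the core of the site bound by GATA factors, and CACCC, the core of the site bound by Klf1, on either strand, so that GATAA appears as TTATC and CACCC as GGGTG when it lies on the opposite strand. The sites do not overlap each other. Rhag and Rhd are the pair that holds both motifs, Hemgn has 1 window with GATAA and 1 without, and Epb42 has neither.
Rhag chr9:27594391-27594640, minus strand: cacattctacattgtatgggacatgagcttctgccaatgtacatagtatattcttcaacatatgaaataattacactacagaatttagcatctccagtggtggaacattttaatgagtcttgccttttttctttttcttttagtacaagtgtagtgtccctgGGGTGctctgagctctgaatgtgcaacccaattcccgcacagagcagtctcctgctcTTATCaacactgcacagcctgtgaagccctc
Rhd chr5:152370950-152371199, plus strand: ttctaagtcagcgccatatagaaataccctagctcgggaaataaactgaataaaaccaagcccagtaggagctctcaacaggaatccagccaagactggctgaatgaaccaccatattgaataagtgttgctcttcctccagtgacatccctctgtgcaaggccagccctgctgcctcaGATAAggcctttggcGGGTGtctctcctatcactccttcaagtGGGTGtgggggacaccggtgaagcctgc
Hemgn chr5:65485822-65486071, minus strand: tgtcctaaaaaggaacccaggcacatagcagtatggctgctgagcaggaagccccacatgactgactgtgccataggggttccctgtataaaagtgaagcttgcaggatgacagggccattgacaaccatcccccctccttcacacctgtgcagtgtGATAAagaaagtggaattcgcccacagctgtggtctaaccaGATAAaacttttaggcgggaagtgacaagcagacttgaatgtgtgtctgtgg
Hemgn chr5:65494190-65494439, minus strand: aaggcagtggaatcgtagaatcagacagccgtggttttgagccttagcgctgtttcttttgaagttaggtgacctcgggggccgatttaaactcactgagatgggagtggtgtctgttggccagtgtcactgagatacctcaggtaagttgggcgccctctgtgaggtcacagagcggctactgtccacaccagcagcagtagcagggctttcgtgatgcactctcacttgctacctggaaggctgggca
Epb42 chr3:128451684-128451933, minus strand: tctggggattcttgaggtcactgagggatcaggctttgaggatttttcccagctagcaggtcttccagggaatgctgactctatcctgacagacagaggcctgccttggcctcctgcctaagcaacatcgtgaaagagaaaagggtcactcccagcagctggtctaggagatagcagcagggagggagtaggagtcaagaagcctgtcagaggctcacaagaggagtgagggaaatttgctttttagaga

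The Rhag window had 1 GATAA, whose farthest base lies 31 bases before the start, and 1 CACCC at 88. The Rhd window had 1 GATAA at 71 and 2 CACCC at 56 and 28, and the Hemgn window had 2 GATAA at 93 and 52. Of 33469 promoter windows of the same length in the rat, 23.5% held GATAA, 49.2% held CACCC and 9.59% held both, so each motif is common. A match describes the letters of the window and no binding was measured.

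Slc4a1 encodes band 3, the most abundant integral protein of the red cell membrane. Its values in the vehicle livers at 72 h were 7.11, 6.65, 9.23, 7.83 and 8.78, and in the EPO livers 10.06, 10.97, 11.28, 11.72 and 10.05. Every EPO liver lay above every vehicle liver, and vehicle animals 3 and 5 lay above the other vehicle animals. The EPO mean was 10.82 ± 0.74 (SD, n = 5), against 7.92 ± 1.09 (SD, n = 5) with vehicle, a difference of 2.89 (SE 0.39, 7.43-fold, limma adjusted p = 1.90e-06). At 7 days the EPO values were 11.23, 9.91, 10.06, 10.13 and 10.48, again all above the vehicle values of 7.34 to 8.40. The difference was 2.48 (5.59-fold, limma adjusted p = 0.000176).

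At 24 h Slc4a1 read 8.01, 8.0, 8.65, 8.28 and 7.95 with EPO and 7.34, 7.57, 6.99, 7.31 and 6.67 with vehicle. These groups did not overlap, but the difference of 1.00 (95% interval 0.22 to 1.79) had a limma adjusted p of 0.442. Slc4a1 and Ahsp were the pair of genes whose EPO and vehicle arrays did not overlap at 24 h (0.641% of all genes), and both passed at an unadjusted p under 0.05, as 1572 of all genes did. Slc4a1 at 24 h with EPO also lay above all 5 sham animals, by 0.79 (limma adjusted p = 0.83, 1.66% of all genes higher without overlap).

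Epb42 encodes the peripheral protein that binds band 3 and ankyrin, a transglutaminase relative without enzyme activity. At 72 h it read 7.89, 8.83, 9.24, 9.96 and 8.01 with EPO and 6.87, 6.89, 7.25, 6.78 and 7.32 with vehicle. The groups were apart, with EPO animals 1 and 5 nearest to vehicle. The difference was 1.76 (SE 0.25, 3.39-fold, limma adjusted p = 4.15e-06). At 7 days it read 9.43, 7.74, 7.57, 8.27 and 8.38 with EPO against 6.57 to 7.15 with vehicle, a difference of 1.38 (2.60-fold, limma adjusted p = 0.000949). With the 2 groups alone in the model that p became 0.0591.

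Rhag encodes the glycoprotein that carries the Rh proteins to the membrane and forms an ammonia channel. In the vehicle livers at 72 h it read 4.99, 5.09, 5.42, 5.02 and 5.49, and in the EPO livers 6.54, 6.55, 7.50, 8.14 and 7.30. No vehicle liver came within a log2 unit of any EPO liver. The difference was 2.0 (SE 0.17, 4.01-fold, limma adjusted p = 3.55e-11), and Rhag had the smallest p of all 14506 genes in that comparison. That p rests on 1 spread shared by all groups. Outside the EPO groups of 72 h and 7 days, Rhag group means were low, at 4.96 to 5.20, with SDs of 0.05 to 0.24. The SD with EPO at 72 h was 0.68. At 24 h Rhag read 4.99 to 5.14 with EPO and 4.95 to 5.27 with vehicle, a difference of -0.05 (95% interval -0.40 to 0.30).

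Rhag then fell back. With EPO at 7 days it read 6.64, 6.01, 5.64, 5.62 and 5.70, all above the vehicle values of 4.84 to 5.33 (difference 0.81, 1.76-fold, limma adjusted p = 0.00963). That call was lost without EPO animal 1 (adjusted p = 0.139), without vehicle animal 5, and with only these groups in the model (0.115). Against the EPO livers of 72 h, Rhag was lower at 7 days by 1.28 log2 units (SE 0.17, limma adjusted p = 5.31e-06), with 4 of 5 livers below every 72 h liver. It was the 1 gene of the 7 to pass there, where 0.31% of all genes were called lower. At an unadjusted p under 0.05, Rhag, Epb42 and Car1 passed there, as did 1799 of all genes. The fall of Rhag remained against vehicle in the test of the change itself, at -1.19 (limma adjusted p = 0.0237, 0.0896% of all genes called lower). This call was lost under 3 of 10 other settings and when any of 11 of 20 single arrays was left out. Rhag and Car1 had an unadjusted p under 0.05 in that test, as did 1443 of all genes.

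Rhd encodes the Rh polypeptide itself, the relative of the human D antigen. At 72 h it read 8.25, 9.48, 10.12, 10.76 and 8.44 with EPO and 6.58, 6.36, 7.64, 6.87 and 7.48 with vehicle. The groups were apart, and the EPO livers spread over a wider range than those of any other group. The difference was 2.42 (SE 0.36, 5.36-fold, limma adjusted p = 1.14e-05). At 7 days Rhd read 10.20, 8.68, 8.65, 9.01 and 9.12 with EPO, against 6.14 to 7.30 with vehicle, and the difference of 2.40 (5.27-fold, limma adjusted p = 7.91e-05) was of the same size as at 72 h.

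Ahsp encodes the alpha-globin chaperone and had the highest fold change of the 7. At 72 h it read 9.5, 11.02, 11.31, 11.59 and 10.27 with EPO and 5.46, 5.65, 8.56, 7.16 and 8.23 with vehicle. The vehicle livers spanned over 3 log2 units and still ended below the lowest EPO liver. The difference was 3.73 (SE 0.57, 13.2-fold, limma adjusted p = 1.77e-05). At 7 days it was 3.35 (10.2-fold, limma adjusted p = 0.000442), with EPO values of 10.85, 9.68, 9.60, 9.69 and 10.27 above vehicle values of 5.94 to 7.31.

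At 24 h Ahsp read 6.83, 7.07, 7.72, 7.44 and 6.98 with EPO and 6.16, 6.44, 3.95, 6.01 and 5.78 with vehicle. The groups did not overlap, and vehicle animal 3, a narrow array, was lowest by far. The difference was 1.54 (95% interval 0.40 to 2.68, limma adjusted p = 0.442), and 1.11 without that animal.

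Hemgn encodes hemogen, a nuclear protein of blood precursors. At 72 h it read 8.26, 9.48, 10.11, 10.24 and 9.07 with EPO and 6.44, 6.57, 7.74, 7.13 and 7.87 with vehicle. The groups were apart, with EPO animal 1 closest to the vehicle livers. The difference was 2.28 (SE 0.33, 4.87-fold, limma adjusted p = 9.49e-06). At 7 days Hemgn read 10.02, 8.65, 8.60, 8.77 and 9.41 with EPO and 6.48 to 7.62 with vehicle, a difference of 2.08 (4.21-fold, limma adjusted p = 0.000204). At 24 h the difference was 0.03 (95% interval -0.65 to 0.70).

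Car1 stood apart in its course. At 72 h it read 8.21, 8.54, 9.11, 9.79 and 9.15 with EPO and 7.86, 6.91, 7.53, 8.01 and 7.52 with vehicle. The groups did not overlap, though EPO animal 1 and vehicle animal 4 lay close. The difference was 1.40 (SE 0.24, 2.63-fold, limma adjusted p = 0.000143). At 7 days the EPO livers read 9.09, 8.51, 8.52, 7.74 and 8.19 and the vehicle livers 8.61, 7.48, 7.86, 8.34 and 8.48, which overlap, and the difference of 0.26 (95% interval -0.23 to 0.74) did not pass. The change of the Car1 difference from 72 h to 7 days did not pass its own limma test either, though its unadjusted p was under 0.05. That change ran from -1.33 to -0.93 without single arrays.

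**Figure D2:**
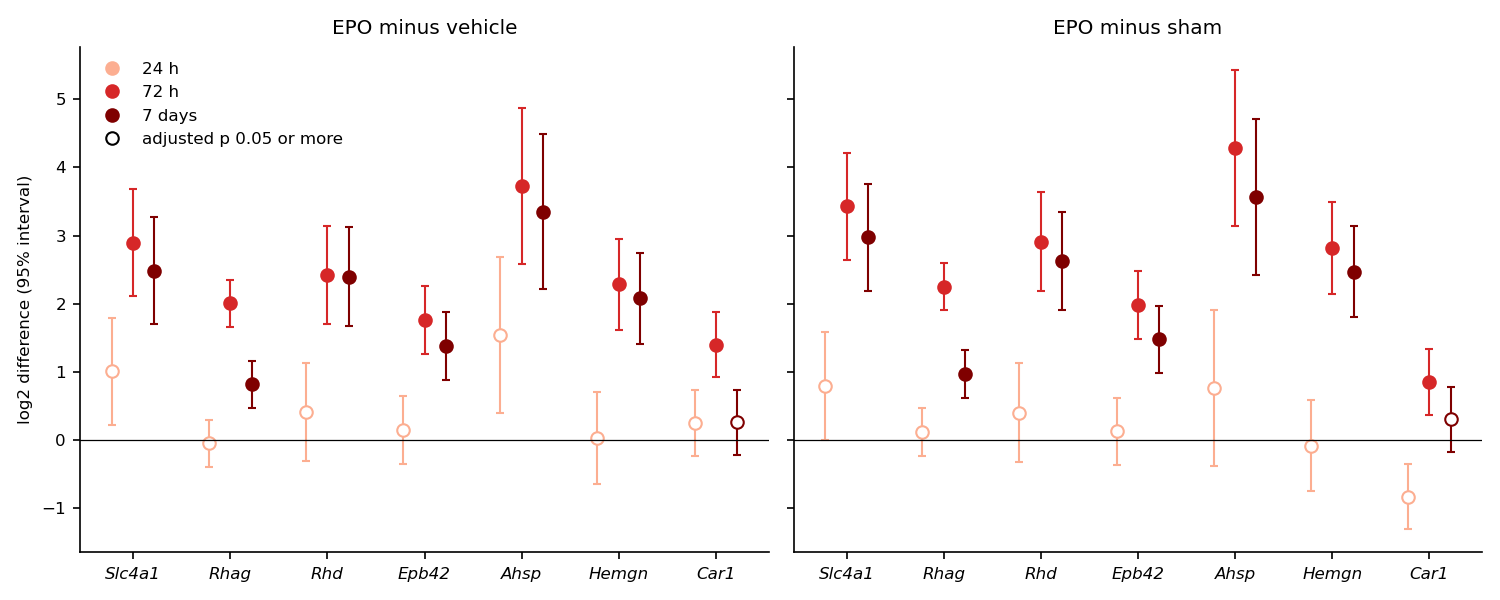
The panels plot, for each of the 7 genes, the log2 difference of EPO from vehicle (left) and from sham (right) at 24 h, 72 h and 7 days, with 95% intervals from limma and filled points for an adjusted p under 0.05. At 72 h all 7 points are filled in both panels, and Car1 is the gene open at 7 days.

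Whether the EPO difference itself changed between times was tested as an interaction. From 24 h to 72 h it grew by 2.05 for Rhag (limma adjusted p = 1.17e-06), by 2.26 for Hemgn (0.0195) and by 1.62 for Epb42 (0.0237), where 0.159% of all genes were called. The other 4 genes grew by 1.15 to 2.19 and did not pass. Rhag passed in every setting tried, while Hemgn and Epb42 did not (highest adjusted p 0.119 and 0.218, with only the groups compared). With single arrays left out, the call was kept in 14 of 20 cases for Hemgn, 10 of 20 for Epb42 and 20 of 20 for Rhag. From 24 h to 7 days 0 of the 7 passed in limma (0.00689% of all genes called higher), and 6 of the 7 had an unadjusted p under 0.05, as did 1304 of all genes.

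Within the EPO livers alone, all 7 genes were higher at 72 h than at 24 h (1.76% of all genes called higher) and all 7 were higher at 7 days than at 24 h (0.738%). The increase from 24 h to 72 h ranged from 1.68 for Car1 to 3.53 for Ahsp. Levels in the 10 groups, ordered from high to low, began with EPO at 72 h and EPO at 7 days for each gene. The test between those 2 neighbours passed for Rhag, though their arrays overlapped, and the other 6 genes did not pass between them (differences of -0.28 to -0.72). The third place was held by EPO at 24 h for Slc4a1 and Ahsp, by vehicle at 72 h for Rhag, Rhd, Epb42 and Hemgn, and by vehicle at 7 days for Car1.

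Against sham livers, all 7 genes were higher with EPO at 72 h than in sham (2.74% of all genes called higher) and 6 at 7 days (1.23%). These comparisons use the same EPO arrays as those with vehicle, so they do not stand alone. Differences from sham at 72 h ran from 0.85 for Car1 and 1.98 for Epb42 to 4.29 for Ahsp. Car1 had 4 of 5 EPO livers above every sham liver at 72 h (limma adjusted p = 0.0318), a call that was lost in 3 of 10 other settings and when any of 7 of 10 single arrays was left out (up to 0.15).

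None of the 7 genes passed for anakinra against vehicle. In limma 0 of 7 passed at each time, and 0 of 7 had an unadjusted p under 0.05, against 616, 1546 and 1106 of all genes at 24 h, 72 h and 7 days. The share of all genes called higher was 0% at 24 h and at 72 h, and 0.00689% at 7 days. The differences at 72 h ran from -0.30 for Slc4a1 to 0.16 for Car1, and the widest 95% interval was that of Ahsp, -1.33 to 0.95.

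Compared directly, EPO livers exceeded anakinra livers for all 7 genes at 72 h (1.74% of all genes called higher), for 6 at 7 days (0.407%) and for 0 at 24 h (0.0207%, and 0 of the 7 at an unadjusted p under 0.05). At 72 h the arrays did not overlap for 5 genes (1.48%). For Rhd 3 of 5 EPO livers and for Hemgn 4 of 5 lay above every anakinra liver, since anakinra animal 4 read 8.55 for Rhd and 8.43 for Hemgn. That animal was highest of its group for all 7 genes.

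With injury and vehicle, Car1 was the 1 gene of the 7 to pass against sham, and at 24 h only. In limma 0 of 7 passed at 72 h and 0 at 7 days (0% of all genes called higher or lower at either time), while 1 of 7 (Car1) and 0 of 7 had an unadjusted p under 0.05, against 1757 and 946 of all genes. At 24 h Car1 read 8.19, 8.28, 7.93, 8.21 and 7.94 in sham and 7.30, 7.02, 6.90, 6.80 and 7.12 with vehicle. Every vehicle liver lay below every sham liver, by 1.08 on average (SE 0.24, limma adjusted p = 0.0136, 0.455% of all genes called lower, 1.67% lower without overlap), and the call remained in every setting tried.

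Car1 was low in the other injured groups at 24 h too. With EPO it read 7.75, 7.29, 7.51, 7.39 and 6.44, and with anakinra 7.63, 7.67, 7.20, 6.92 and 6.88, so that again all 5 livers of each group lay below all 5 sham livers (1.22% and 1.05% of all genes were lower without overlap). The differences from sham were -0.83 (limma adjusted p = 0.124) and -0.85 (0.145), which did not pass, and the groups share the sham arrays. No other gene of the 7 passed against sham with EPO at 24 h (0.283% of all genes called higher) or with anakinra at any time (0.124%, 0.0414% and 0.931% called higher at 24 h, 72 h and 7 days). At an unadjusted p under 0.05, Slc4a1 and Car1 passed with EPO at 24 h, as did 869 of all genes, and Car1 with anakinra at 24 h, as did 911. By 7 days the vehicle mean of Car1 was 8.15 ± 0.47 (SD, n = 5), against 8.11 ± 0.16 (SD, n = 5) in sham.

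Single animals moved across the genes together. In the EPO livers of 72 h, animal 4 was highest for all 7 genes and animal 1 lowest for 6, and in those of 7 days animal 1 was highest for all 7. Vehicle animals 3 and 5 at 72 h were each highest or second for 6 of 7. Those 2 animals and anakinra animal 4 also had low Hamp, the gene of the iron hormone hepcidin, at 11.55, 9.67 and 10.72, where the other vehicle livers of 72 h read 12.78 to 13.16 and the other anakinra livers 11.61 to 12.95. Of the 7 genes, vehicle animals 3 and 5 were as high as 9.23 and 8.78 for Slc4a1 and 8.56 and 8.23 for Ahsp, still below every EPO liver of 72 h.

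Deviations of each array from its group mean, over 50 arrays, were most alike for Rhd and Hemgn (Pearson r 0.92), Slc4a1 and Hemgn (0.91) and Slc4a1 and Rhd (0.91). They were least alike for Rhag and Ahsp and for Ahsp and Car1 (0.38 each). By ranks the least alike pair was Rhag and Car1 (Spearman rho 0.29). These are descriptions: arrays share their normalization, and a single high or low animal moves all genes of its array. The spread within groups of each of the 7 genes ranked high among all genes, at the 93.2 percentile for Rhag and from 98.4 (Car1) to 99.97 (Ahsp) for the others.

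**Figure D3:**
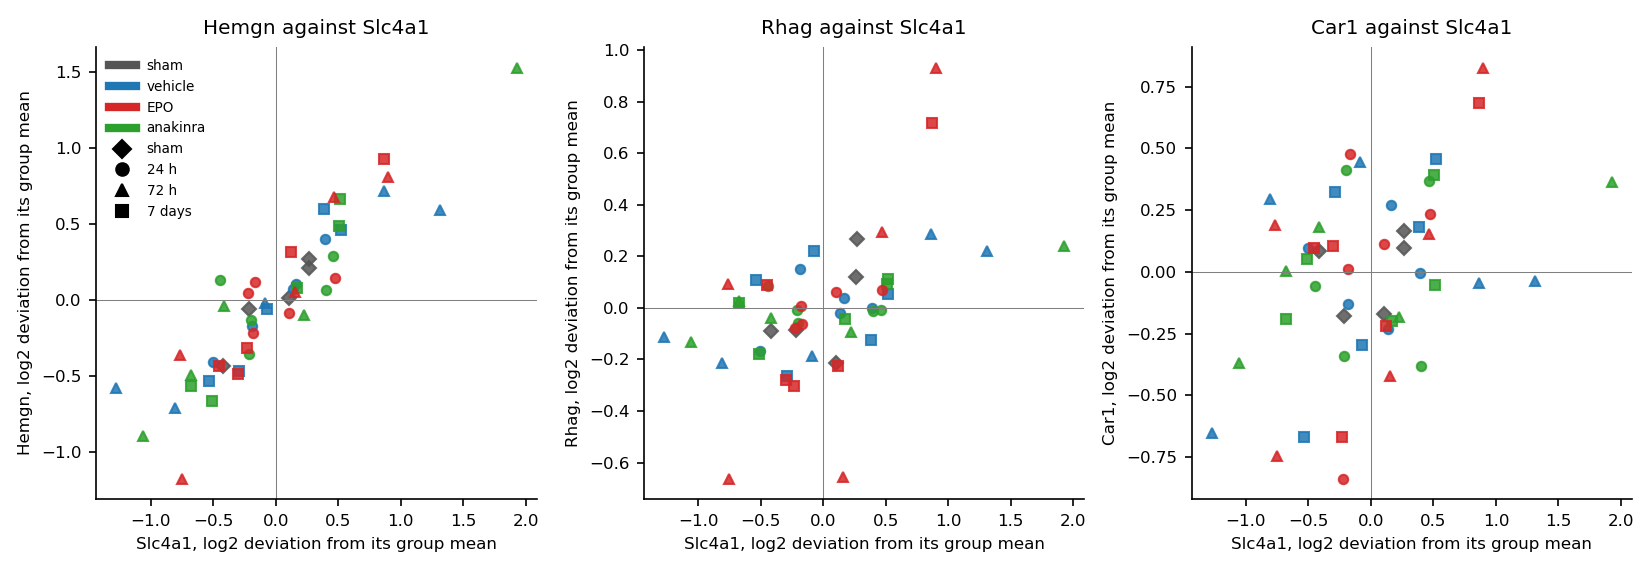
Each point is 1 of 50 livers, plotted as its log2 deviation from its group mean for Slc4a1 (horizontal) against Hemgn, Rhag or Car1 (vertical), coloured by treatment and shaped by time. Hemgn lies along a line with Slc4a1 (r 0.91), Rhag and Car1 scatter (0.51 and 0.41), and the anakinra animal far to the right is animal 4 at 72 h.

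Outside the 7, the gene with the most similar deviations was named for each member. Alox15, the lipoxygenase of maturing reticulocytes, came first for Slc4a1 (r 0.94) and Ahsp (0.91). Bpgm, which makes the bisphosphoglycerate that lowers oxygen affinity, came first for Rhd (0.94), and Add2, an adducin of the membrane skeleton, for Epb42 (0.92). Alas2, the first enzyme of heme synthesis in red cells, came first for Hemgn (0.90), and the factor Klf1 for Rhag (0.76). By ranks the likeness of Rhag and Klf1 was lower (Spearman rho 0.55), where the other pairs named so far had 0.85 to 0.92. Next for Rhd came Rsad2 (0.92), an interferon-induced antiviral gene, and Cdr2 (0.91). For Car1 the nearest was Trnau1ap (0.73), which binds the selenocysteine transfer RNA, followed by Inpp5a (0.72) and Gstp1 (0.71), and Trnau1ap had a correlation over the 10 group means of 0.15, where the nearest gene of every other member was above 0.95.

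The other genes of the pathway were counted from lists. Of 28 other membrane and skeleton genes measured, 8 were higher with EPO at 72 h and 4 at 7 days, with none lower. Sptb, beta spectrin, rose by 1.56 at 72 h (2.95-fold) and by 1.05 at 7 days. Add2 rose by 1.39 and 1.18, Epb41, the protein that joins spectrin to actin, by 1.15 and 0.97, and Ank1, the ankyrin that ties band 3 to spectrin, by 1.07 and 0.83. The median of the 28 was 0.19 at 72 h, where the median of all genes was -0.03.

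None of the 6 globin genes with a probe of their own passed for EPO against vehicle at 72 h or 7 days in limma. Ahsp, the gene of the alpha-globin chaperone, was 13.2-fold higher at 72 h. Hbb-b1 differed by 1.00 and 1.02 (limma adjusted p = 0.124 and 0.615), Hba-a3 differed by 1.00 and 0.97, and Hbb by 0.78 and 0.83. In vehicle livers at 72 h the means were 11.77 for Hbb-b1, 12.62 for Hbb and 10.73 for Hba-a3. Those of Hbe1, Hbg1 and Hbe2 were 6.21, 5.21 and 4.29. Near-identical globin copies can share signal on an array. Whether level or shared signal affected these tests was not tested. At an unadjusted p under 0.05, 4 of the 6 (Hba-a3, Hbb, Hbb-b1 and Hbe1) were higher than with vehicle at each of these times, as 1047 and 379 of all genes were. Against other groups some passed: 3 of 6 at 72 h and 4 of 6 at 7 days were higher with EPO than with anakinra, the same numbers were higher than with EPO at 24 h, and 1 at each time was higher than in sham.

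Of 18 heme and iron genes, 5 were higher at 72 h and 4 at 7 days: Alas2 by 1.94 and 2.17, Slc25a37, which imports iron into mitochondria, by 1.36 and 1.23, Fech, the last step of heme synthesis, by 0.95 and 0.80, and Tfrc, the transferrin receptor, by 0.96 and 1.22. Of 20 erythroid factors, 3 were higher at 72 h (Klf1 by 0.85, Gata1 by 0.50, Gfi1b by 0.43) and 1 at 7 days (Gfi1b by 0.66). Of 24 maturation genes, 8 were higher at 72 h and 4 at 7 days, with Alox15 by 3.84 and 4.32 first, and Bnip3l, which clears mitochondria from reticulocytes, by 0.56 and 0.60. Of 14 other carbonic anhydrases, Car2 alone was higher, by 2.03 at 72 h and 1.70 at 7 days, and of 14 relatives of the 7 genes in other tissues none was higher, with Tgm3, a transglutaminase, lower by 0.35 at 72 h.

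Markers of other cells were also higher at 72 h. Platelet markers were higher in 6 of 10 (Ppbp by 1.66), and the mean of that list ranged from 7.16 to 7.83 in EPO livers and 6.78 to 7.06 in vehicle livers. Neutrophil markers were higher in 7 of 18 (Mmp8 by 2.23), with a list mean of 6.29 to 7.02 against 5.96 to 6.24. Kupffer cell markers were higher in 10 of 16 (Cd163 by 0.78), at 9.17 to 9.40 against 8.43 to 9.12, and cell division genes in 6 of 14 (Rrm2 by 1.55), at 6.26 to 6.85 against 5.92 to 6.26. The cell division list read 6.13 to 6.56 in sham livers, which overlaps the EPO livers of 72 h. Endothelial markers were higher in 3 of 9 (Tie1 by 0.42), at 9.23 to 9.52 against 8.80 to 9.22, and lymphocyte and NK markers in 3 of 15 (Il7r by 0.97), at 6.65 to 7.10 against 6.38 to 6.88. Markers of blood progenitors were called in 0 of 9, at 7.12 to 7.28 against 7.13 to 7.20. At 7 days Ppbp alone of these lists was still higher, and hepatocyte genes were called in 0 of 12 at either time. The part of these cells in the rise of the 7 red cell genes was not tested.

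**Figure D4:**
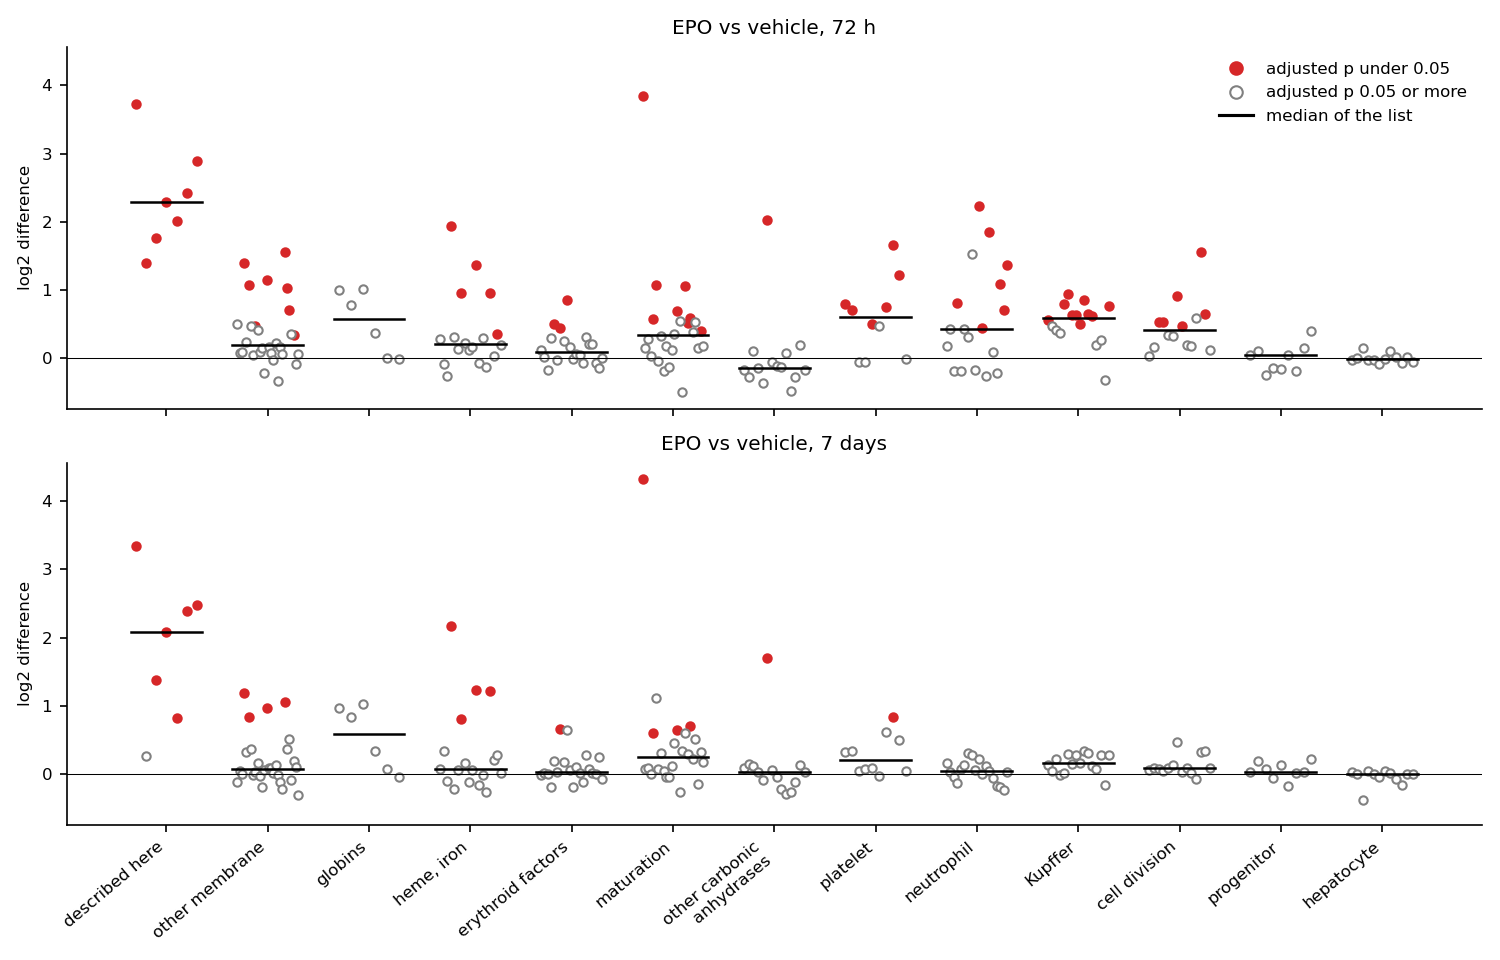
Each point is 1 gene of a list, plotted as the log2 difference of EPO from vehicle at 72 h (top) and 7 days (bottom), red for an adjusted p under 0.05, with a bar at the list's median. The 7 genes described here have the highest medians, 2.28 and 2.08, and neutrophil, Kupffer and cell division genes are red at 72 h alone. The 7 and the lists were chosen with earlier results of these data known, so the order of the medians is no test.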

How the data were processed

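Liver RNA was hybridised to Affymetrix Rat Gene 1.0 ST arrays, per the labels' protocols. The deposited values are log2 values that the authors made with RMA in oligo, per the submitters' processing notes; neither version is stated there. Here limma 3.58.1 in R 4.3.3 fitted 1 mean per group to all 50 arrays (40 residual degrees of freedom), with two-sided p-values adjusted by the Benjamini-Hochberg method over 14506 genes within each of 24 comparisons. Of 29214 probes, 15310 had 1 gene symbol, 323 several and 13581 none; a gene was represented by its highest-mean probe. The members, lists and genes to name were chosen with earlier results of these data known. Named genes were the 7, the up to 4 genes per list that passed EPO against vehicle with the lowest p, the nearest by correlation within groups, and fixed check genes. Without counts, precision is set by the number of arrays. In simulated data 95% of genes changed by a log2 of 1 and 100% by 2 were recovered. Those genes were drawn at random, with independent normal noise and the same spread in every group. The 7 genes vary more within groups than most genes, so these shares do not give the recovery for them. Alternatives were 10 processing settings and leaving out each array.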

Additional observations from a re-analysis of the deposited data

Results flagged for a closer look

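Among 70 sets of 5 arrays (7 genes in 10 groups), 3 held an array far from the others, where chance gives about 1 in 20. Rhd in the anakinra livers of 72 h was highest in animal 4, at 8.55 (next 6.72). Ahsp was lowest in sham animal 1, at 5.53 (next 6.57), and in vehicle animal 3 at 24 h, at 3.95 (next 5.78), a narrow array.

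The EPO difference from vehicle differed between times by its own test. From 24 h to 72 h it grew for Rhag by 2.05, for Epb42 by 1.62 and for Hemgn by 2.26, and from 72 h to 7 days that of Rhag changed by -1.19. Of these calls, only the growth for Rhag was kept in every setting and without any single array.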

How the results depend on the processing

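The 7 calls of EPO against vehicle at 72 h and the fall of Car1 at 24 h with vehicle remained in all 10 settings and without any single array. The number of all genes called at 72 h, 395, moved to 53 with only the groups compared, 508 with array medians subtracted, 1520 without EPO animal 1 and 205 without vehicle animal 2. At 7 days 4 of the 7 genes passed with only the groups compared, and 5 to 6 without single arrays. The growth of the EPO difference from 24 h to 72 h was called for 1 of the 7 genes with only the groups compared and for 1 to 5 without single arrays. Its change from 72 h to 7 days was called for 0 of the 7 when adjusted over all probes, with only the groups compared and without the narrow arrays. Without single arrays it was called for 0 to 1 of the 7. Its change from 24 h to 7 days was called for 1 of the 7 with array weights and 2 with only the groups compared. Rhag between 72 h and 7 days of EPO lost its call with only the groups compared (0 of the 7). EPO and anakinra at 24 h against sham gained 1 of the 7 each with array weights and with only the groups compared. The shares of all genes called under the other settings are not given here, so these counts of the 7 are not set against them.

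Signs turned in differences near 0 that were not called. Rhag at 24 h became 0.00687 with array medians subtracted and 0.0497 with quantile normalization repeated. Hemgn at 24 h became -0.0964 with array weights and -0.0172 without the narrow arrays, and -0.0760 to 0.127 without single arrays. The change of the EPO difference of Rhd from 72 h to 7 days became 0.0256 with quantile normalization, 0.0651 with array weights and 0.0607 without the narrow arrays, and -0.32 to 0.31 without single arrays; that of Ahsp ran from -0.76 to 0.0110. The cause was not tested. Replicate numbers did not pair the animals (mean correlation of deviations 0.01), and with a replicate block the 7 genes gave 7 calls at 72 h, 6 at 7 days and 0 at 24 h, with no call changed. Scanner intensities and background were not analysed here, which leaves low values without a detection call.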
